A study of Mus musculus with 2 samples.

Results

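The epidermal growth factor (EGF) receptor family and its ligands were examined in YTN16, a mouse gastric cancer cell line, with and without knockdown of Gas6. The genes were fixed by name: 6 ligand genes (Areg, Ereg, Hbegf, Tgfa, Btc and Epgn), 3 receptor genes (Egfr, Erbb2 and Erbb3) and the feedback inhibitor gene Errfi1. All 10 were found among the 45777 genes of the table. The control culture carried a control short hairpin RNA and its genotype is given as wild type (shControl), and the other culture carried a hairpin against Gas6 (shGas6). Both were grown in DMEM with serum and a serum extender, and 1 stranded poly(A) library was sequenced from each. The labels do not say whether either culture was a clone or a pool of transduced cells. With 1 library per group, every value is a difference between 2 libraries with no replicate check and no p-value.

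EGF-like ligands are made as membrane-anchored precursors that proteases of the ADAM family cut free. The released factor binds the receptor EGFR, which pairs with itself or with a relative (ERBB2, ERBB3 or ERBB4) and signals through the RAS-ERK and PI3-kinase routes. Signalling induces several of the ligands and also ERRFI1, which binds the receptor kinase and shuts it off. In the stomach, TGF-alpha is made by the mucosa and restrains acid secretion, and ERBB2 is amplified in a subset of human gastric cancers.

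The libraries held 50756676 counts (shControl) and 51807140 counts (shGas6). Levels of a gene between libraries are given as CPM, its count per 1e6 counts after TMM scaling. By this scale the shGas6 library had less Gas6, with 14.1 CPM against 48.8 in shControl. A gene was taken as measured if either library reached 1 CPM. This held for 13367 genes, with a median log2 ratio (shGas6 over shControl) of -0.01. Among 8 epithelial markers, 4 were measured (Cdh1, Krt8, Krt18 and Krt19), with a log2 ratio above 0 in all 4 and past 2-fold for Krt18 (1.26), while Epcam was at 0.629 and 0.503 CPM, Cldn4 had 2 counts in each library, Cldn7 had 0 in both, and Esrp1 had 0 in shControl and 10 in shGas6. The epithelial list summed to 5647 TPM (the authors' unit of transcripts scaled for length and depth) in shControl and 9006 in shGas6. The 8 fibroblast markers summed to 0.691 and 0.896 TPM (1 measured, with Col1a2, Lum and Thy1 at 0 in both), the 8 leukocyte markers to 0.771 and 0.168 TPM (none measured, with Tyrobp and Adgre1 at 0 in both) and the 6 endothelial markers to 6.54 and 2.38 TPM (2 measured, with Kdr and Tek at 0 in both). Both measured endothelial markers were lower in shGas6: Cdh5 had 601 and 193 counts, 3.17-fold lower, and Vwf had 76 and 9 counts, 8.59-fold lower. The part of these marker differences in the results below was not tested.

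Of the 10 genes, 9 were measured, and all 9 were higher in shGas6. Among all measured genes 49.1% had a log2 ratio above 0. At least 2-fold higher were 3 of the 9 (Areg, Errfi1 and Erbb3), against 8.64% of all measured genes, and none was at least 2-fold lower, against 6.19%. At least 1.5-fold higher were 8 of the 9, all but Erbb2, against 16.0%. The median log2 ratio of the 9 genes was 0.90. These counts rest on size alone and describe this pair of libraries. The genes were chosen with earlier results of these data known, so the contrast with all measured genes is no independent support. In RNA from a whole culture, a change in the number of cells that make a transcript and a change in the amount per cell cannot be told apart.

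**Figure D1:**
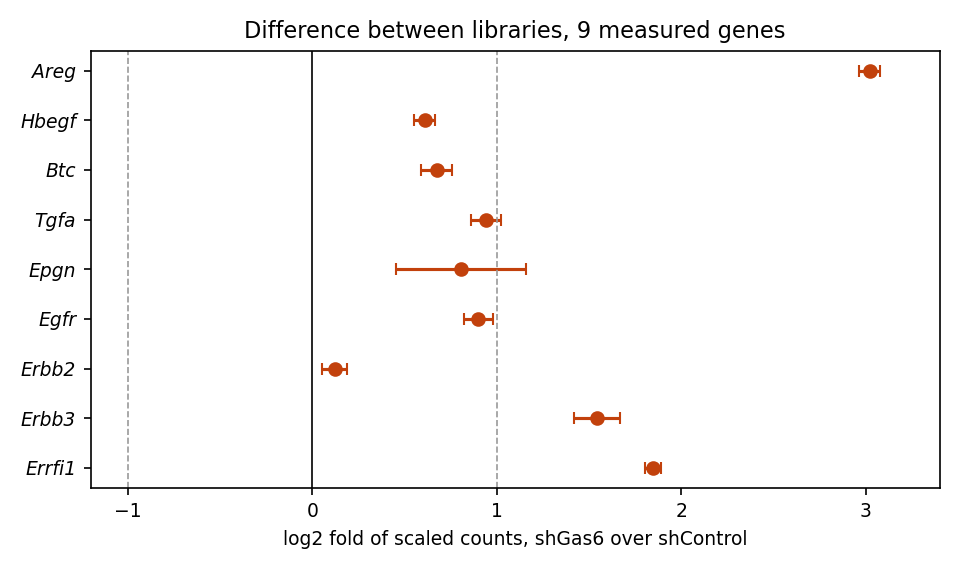
Fold of TMM-scaled counts on a log2 scale (x axis, shGas6 over shControl) for the 9 measured genes, with bars for the 95% counting interval of each fold and dashed lines at 2-fold in either direction. Areg (8.12-fold), Errfi1 (3.60-fold) and Erbb3 (2.91-fold) lie past the 2-fold line, Erbb2 (1.09-fold) lies nearest to no difference, and no gene lies below 0.

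Among the ligands, Areg showed the greatest difference. Areg encodes amphiregulin, an EGFR ligand that is induced by many growth and stress signals. Its counts were 2772 in shControl and 22884 in shGas6. On the CPM scale these are 54.5 and 442, which makes it 8.12-fold higher (7.80 to 8.44, a 95% interval for counting error only, as are all intervals on folds). By log2 ratio it stood at rank 193 of the 13367 measured genes. By TPM its level moved from rank 2065 to rank 194.

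The next 2 genes by fold were Errfi1 and Erbb3. Errfi1, at chr4:150853796-150868889, had 5175 and 18949 counts, or 102 and 366 CPM, 3.60-fold higher (3.49 to 3.71), at rank 484 by log2 ratio. Its level by TPM moved from rank 2788 to rank 668. The counting intervals of the Areg, Errfi1 and Erbb3 folds did not overlap.

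Areg and Errfi1 also shared letters upstream of a start site. RefSeq promoter sequences (GRCm38.p6) matched 7 of the 10 genes by gene identifier, with 8 start sites, since Errfi1 has 2. Erbb3, Hbegf and Ereg had no entry and were not searched, so nothing is known here of their promoters. The 250 bases before each start were searched for the cyclic AMP response element TGACGTCA (its own reverse complement), the AP-1 letters TGANTCA and the ATF4 letters TGATGNAA on both strands, and the TATA letters TATAAA on the gene's strand. TGACGTCA was in the Areg window and in that of the downstream Errfi1 start and in none of the other 6. It begins 61 bases before the Areg start and 51 bases before that Errfi1 start, followed by TATAAA at 31 and 28 bases. TATAAA was also found upstream of Epgn, and TGANTCA and TGATGNAA in none of the 8 windows. Of 32851 promoters, 1.55% hold TGACGTCA, 7.59% TATAAA, 6.75% TGANTCA, 3.45% TGATGNAA, and 23 promoters (0.07%) hold both TGACGTCA and TATAAA. The windows are shown for Areg (chr5:91139349-91139598, plus strand) and Errfi1 (chr4:150854820-150855069, plus strand), and for Epgn (chr5:91027267-91027516, plus strand) and Btc (chr5:91402995-91403244, minus strand), which lie in one cluster with Areg. Each is written 5′ to 3′ on the gene's strand, with TGACGTCA and TATAAA in capitals.
Areg: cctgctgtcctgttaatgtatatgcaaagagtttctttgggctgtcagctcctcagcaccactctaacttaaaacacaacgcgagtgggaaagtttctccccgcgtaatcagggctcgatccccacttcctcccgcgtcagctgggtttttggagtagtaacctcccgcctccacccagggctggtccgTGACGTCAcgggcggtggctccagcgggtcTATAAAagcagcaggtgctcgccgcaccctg
Errfi1: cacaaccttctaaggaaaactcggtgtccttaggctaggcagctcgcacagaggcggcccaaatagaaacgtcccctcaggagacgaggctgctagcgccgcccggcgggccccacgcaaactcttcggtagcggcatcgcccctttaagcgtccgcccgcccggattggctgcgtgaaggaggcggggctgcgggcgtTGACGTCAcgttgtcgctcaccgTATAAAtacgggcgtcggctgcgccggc
Epgn: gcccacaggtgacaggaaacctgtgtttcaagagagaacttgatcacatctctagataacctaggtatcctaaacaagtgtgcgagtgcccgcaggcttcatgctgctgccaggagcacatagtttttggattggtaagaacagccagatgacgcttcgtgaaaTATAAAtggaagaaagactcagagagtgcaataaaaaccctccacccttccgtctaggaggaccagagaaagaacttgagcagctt
Btc: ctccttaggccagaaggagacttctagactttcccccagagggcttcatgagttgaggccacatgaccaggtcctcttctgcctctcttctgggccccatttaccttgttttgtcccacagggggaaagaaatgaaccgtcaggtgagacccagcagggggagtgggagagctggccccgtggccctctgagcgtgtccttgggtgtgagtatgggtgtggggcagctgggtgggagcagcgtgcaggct
The other Errfi1 window, upstream of the first start, and those of Tgfa, Egfr and Erbb2 held none of the 4 motifs. A match of letters is a description and does not show that a factor binds there. The motifs were chosen after the sequences were read, so the shares over all promoters cannot weigh the match.

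The other measured ligands differed by less than 2-fold, each in the same direction as Areg. Tgfa, the gene of TGF-alpha (chr6:86195038-86275744), had 1929 and 3769 counts, or 37.9 and 72.9 CPM, 1.92-fold higher (1.82 to 2.03), so that its counting interval reached past 2-fold. Hbegf, which encodes a heparin-binding ligand of EGFR and ERBB4, had 4362 and 6767 counts, or 85.8 and 131 CPM, 1.53-fold higher (1.47 to 1.58). Its chromosome 18 neighbourhood was itself higher: the 50 nearest measured genes had a median log2 ratio of 0.16, and with that subtracted the Hbegf log2 ratio was 0.45 in place of 0.61.

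Betacellulin and epigen were the remaining ligands with reads. Btc, the betacellulin gene, whose product also binds both EGFR and ERBB4, had 1826 and 2963 counts, or 35.9 and 57.3 CPM, 1.60-fold higher (1.5 to 1.69). Epgn, the epigen gene, was scarce, with 107 and 190 counts, or 2.10 and 3.67 CPM, and its fold of 1.75 had the widest interval of the 9 genes (1.37 to 2.23). Ereg, the epiregulin gene, was not detected in either library. A count of 0 (a limit of 3 counts) allows 0.0590 CPM for shControl and 0.0580 CPM for shGas6, so no fold is given.

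**Figure D2:**
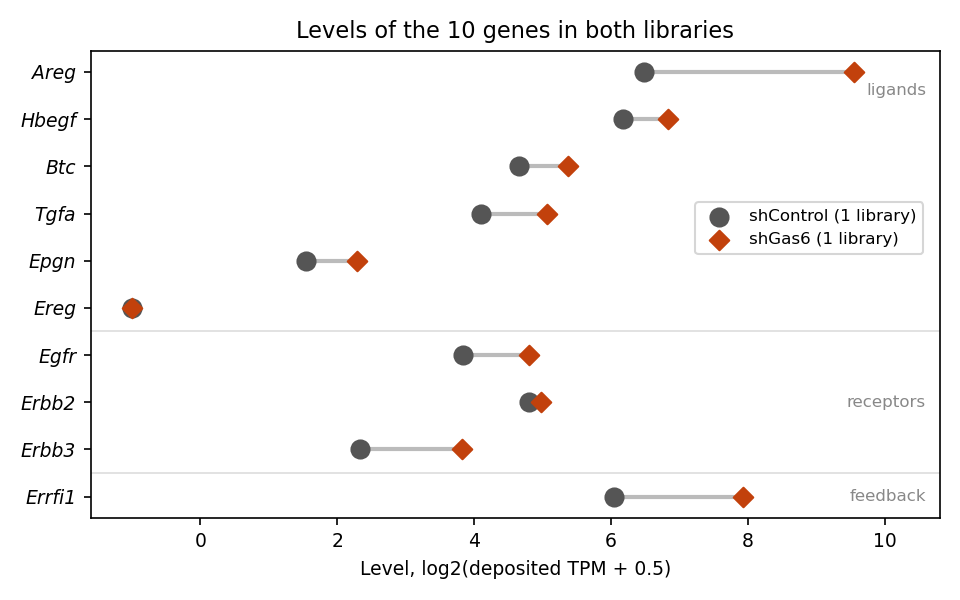
Levels of the 10 genes as log2 of the deposited TPM plus 0.5 (x axis) in the shControl library (grey circles) and the shGas6 library (orange diamonds), grouped as ligands, receptors and feedback inhibitor. Each pair of points is 1 gene, the Areg pair (89.0 and 747 TPM) is the farthest apart, and Ereg is at 0 in both.

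The per-length levels in TPM showed how the ligand pool was made up. The 7 EGFR ligand genes (the 6 above and Egf) summed to 205 TPM in shControl and 939.5 TPM in shGas6, 4.59-fold higher. Areg made up 43.4% of that sum in shControl and 79.5% in shGas6. Hbegf made up 35.0% and 12%, Btc 12.1% and 4.35%, and Tgfa 8.10% and 3.50%. Areg and Hbegf were at nearby levels in shControl (89.0 and 71.6 TPM, a ratio of 1.24), whereas in shGas6 Areg was 6.61 times as abundant (747 and 113 TPM). Of the difference between the sums, 89.6% was Areg, and without Areg the sums were 116 and 192 TPM, 1.66-fold higher. TPM shares carry no counting interval here.

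**Figure D3:**
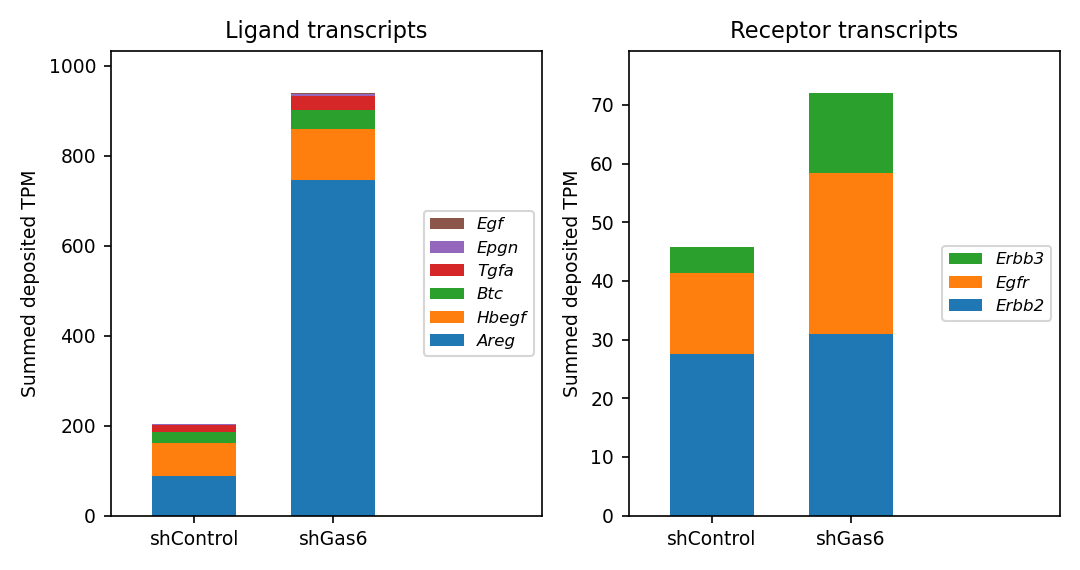
Summed deposited TPM (y axis, a separate scale for each panel) of the EGFR ligand genes (left) and of the receptor genes (right) in each library, stacked by gene, with 1 library per bar. The ligand bar grows from 205 TPM in shControl, with Areg at 43.4%, to a bar in shGas6 of which Areg makes up 79.5%, while the receptor bar grows from 45.9 to 72.0 TPM.

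The summed receptor level differed less than the summed ligand level, and most of that gap was Areg. The receptor sum was 1.57-fold higher, the ligand sum 4.59-fold with Areg and 1.66-fold without it. By gene, the median log2 ratio was 0.90 for the 3 receptors and 0.80 for the 5 measured ligands, and Erbb3 had a greater fold than every measured one of those ligands but Areg. Erbb3 (chr10:128567523-128589635), the neuregulin receptor with a weak kinase that signals through its partners, had 699 and 2071 counts, or 13.8 and 40.0 CPM, 2.91-fold higher (2.67 to 3.18). Egfr (chr11:16752203-16913907) had 2013 and 3822 counts, or 39.6 and 73.9 CPM, 1.87-fold higher (1.77 to 1.97). Erbb2 (chr11:98412484-98437716), which has no known soluble ligand and acts as the common partner, had 3522 and 3896 counts, or 69.3 and 75.3 CPM, 1.09-fold higher (1.04 to 1.14).

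The receptor genes stood in a different balance in the 2 libraries. In TPM, Erbb2 was at 27.5 and 30.9, Egfr at 13.8 and 27.4, and Erbb3 at 4.54 and 13.7. Erbb2 made up 59.9% of the receptor sum in shControl and 42.9% in shGas6, Egfr 30.2% and 38.1%, and Erbb3 9.90% and 19.0%. Erbb2 was at 1.99 times the Egfr level in shControl and 1.13 times in shGas6. The receptor sum was 45.9 and 72.0 TPM, and the ratio of the ligand sum to the receptor sum was 4.47 in shControl and 13.0 in shGas6. That shift was nearly all Areg: without it the ligand sum was 1.66-fold higher, near the 1.57-fold of the receptor sum. Errfi1 was at 65.2 and 244 TPM, or 4.71 and 8.88 times the Egfr level.

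The order of the 10 levels by TPM in shControl was Areg, Hbegf, Errfi1, Erbb2, Btc, Tgfa, Egfr, Erbb3, Epgn and Ereg. In shGas6, Errfi1 stood above Hbegf, and Btc and Tgfa above Erbb2. Neighbours in either order among the 9 measured genes lay outside each other's counting intervals, with an exception in shGas6. There the intervals of Tgfa (32.9 TPM, 31.8 to 34.0) and Erbb2 (30.9 TPM, 30.0 to 31.9) met. Ereg, with 0 counts, had no upper bound in TPM and was not compared. How far cultures vary was not measured.

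Areg, Ereg, Epgn and Btc lie together on chromosome 5, within 375478 bases from the start of Epgn to the far end of Btc (Epgn at chr5:91027517-91035212, Ereg at chr5:91074617-91093649, Areg at chr5:91139599-91148432 and Btc at chr5:91357261-91402994). Of 7 listed genes in that span, 4 were measured, and their folds ranged from 1.60 (Btc) to 8.12 (Areg). The other measured gene, Gm19619, which lies between Areg and Btc, was at 1.32 and 3.19 CPM, 2.42-fold higher (1.81 to 3.27). Folds of the 8 flanking genes ranged from 0.385 to 2.0. On the Btc side, Parm1, Rchy1, Thap6 and Odaph had folds between 0.941 and 1.19. On the Epgn side, Mthfd2l, a mitochondrial folate enzyme gene, was 1.76-fold lower (1.57 to 1.98), and the chemokine genes Cxcl2, Cxcl1 and Cxcl3 had folds of 2.0, 1.21 and 0.385. The 50 measured genes nearest to the cluster had a median log2 ratio of -0.09, and with that subtracted the log2 ratio of Areg was 3.11 in place of 3.02.

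**Figure D4:**
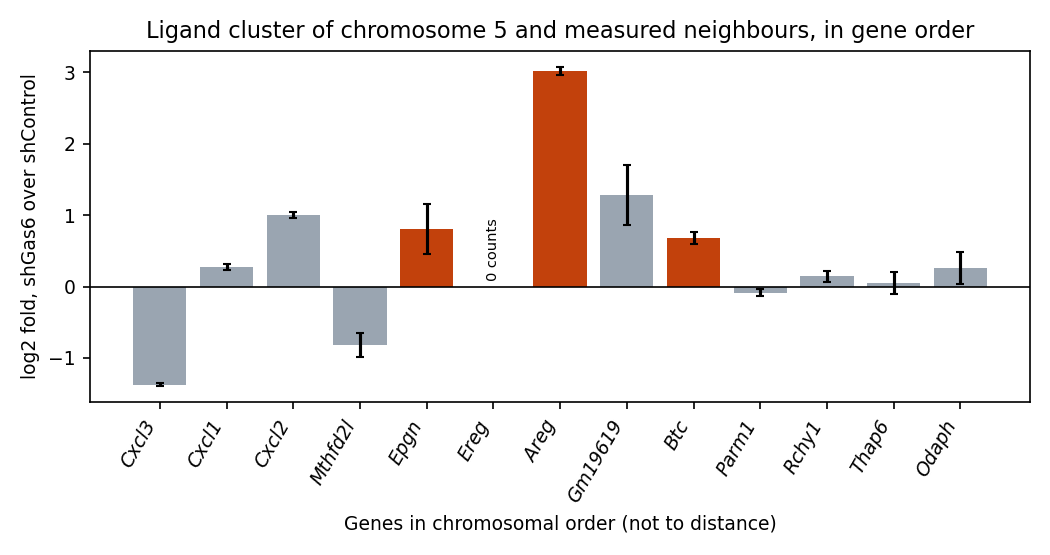
Log2 fold of scaled counts (y axis, shGas6 over shControl, bars for the 95% counting interval) of the chromosome 5 ligand genes (orange), of Gm19619 and of the 4 nearest measured genes on each side (grey), drawn in gene order and not to distance. Areg (8.12-fold) stands above every other gene shown, Ereg had 0 counts, and the 4 genes on the Btc side stay between 0.941-fold and 1.19-fold.

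Some members overlap other genes, and the strand setting of the counting is not given in the sources used here, so reads of overlapping genes cannot be told apart. Gm39584, a long non-coding RNA gene inside Egfr, had 526 and 562 counts, 1.05-fold higher (0.931 to 1.19), and Egfros had 17 and 41. Mien1, which meets the end of Erbb2, had 1809 and 1862 counts, 1.01-fold higher (0.948 to 1.08). The genes that overlap Ereg, Hbegf, Erbb3 and Errfi1 had at most 11 counts in either library, and no listed gene overlaps Areg, Tgfa, Btc or Epgn.

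The remaining ligands of the family and the receptor gene Erbb4 were at or near the limit of measurement. Of these 6 genes, 3 were measured, with 2 at least 2-fold higher and 1 at least 2-fold lower (8.64% and 6.19% of all measured genes), too few genes to read a share from. Each of the 3 reached 1 CPM only in the library where it was higher. At such levels the filter itself favours large folds, so these calls carry no weight. Egf, the founding ligand, had 50 and 103 counts, or 0.983 and 1.99 CPM, 2.02-fold higher (1.43 to 2.90). The deposited TPM gave Egf a fold of 2.91. The transcript length that the deposited counts and FPKM imply for Egf, set against the median over measured genes, was 1.39 times as long in shControl as in shGas6, and that of the 9 measured genes above differed by at most 1.03 times. Nrg2, a neuregulin, had 0.728 CPM in shControl and 2.15 in shGas6, a fold of 2.95 (2.02 to 4.40). Nrg4, a ligand of ERBB4, was 2.11-fold lower (1.42 to 3.20), at 1.55 and 0.735 CPM. Nrg1, another ligand of ERBB3, had 0 counts in shControl and 8 in shGas6, and Nrg3 and Erbb4 had 0 in both.

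Of 12 genes of ligand release, 10 were measured, 5 with a log2 ratio above 0 and 5 below, with a median of 0.08. None of the 10 was past 2-fold, against 8.64% higher and 6.19% lower among all measured genes, shares at which so short a list would hold few such genes. The sheddases Adam10 and Adam9 were at 291 and 283 CPM and at 358 and 357 CPM. Adam15 was 1.17-fold higher (1.13 to 1.20). Timp3, an inhibitor of sheddases and metalloproteinases, was at 461 and 918 CPM, 1.99-fold higher (1.96 to 2.03), so that its interval spanned the 2-fold line, and the deposited TPM gave it a fold of 2.06. Adam17, the main sheddase of Areg, was at 82.2 and 66.1 CPM, 1.24-fold lower (1.19 to 1.30), and Rhbdf2, which escorts that protease to the surface, was 1.58-fold higher (1.49 to 1.69), both named after their values were seen.

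Downstream adaptors and effectors, and genes that restrain or sort the receptor, were counted against the same shares of all measured genes, 8.64% higher and 6.19% lower, and lists of these sizes would hold few such genes. All 29 adaptors and effectors were measured, none at least 2-fold higher and 1 at least 2-fold lower, with a median log2 ratio of 0.10. The 1 was Pik3r3, a regulatory subunit of PI3-kinase, at 14.1 and 1.51 CPM, 9.33-fold lower (7.37 to 11.9). Vav3, named after its values were seen, was 1.99-fold higher (1.84 to 2.15), so that its interval spanned the 2-fold line. The deposited TPM gave Vav3 a fold of 2.06. At 1.5-fold, 3 genes of this list were higher: Vav3, Sos2 (1.85-fold) and Src (1.72-fold). At that threshold 2 were lower, Pik3r3 and Gab2 (1.53-fold). Sos2, Src and Gab2 were also named after their values were seen. The shares of all measured genes at 1.5-fold were 16.0% higher and 1679 of 13367 lower. Mapk3, which encodes the kinase ERK1, was at 452 and 302 CPM, 1.497-fold lower (1.47 to 1.53). Akt1 was 1.11-fold lower (1.08 to 1.13), Eps8 1.18-fold higher (1.15 to 1.20) and Map2k1 1.33-fold higher (1.29 to 1.37). Of 24 genes of restraint and traffic, 23 were measured, none past 2-fold in either direction, with a median log2 ratio of 0.05. The endocytic adaptors Epn1 and Cd2ap had folds of 1.16 and 0.904, and the endosomal sorting genes Snx1 and Hgs 0.923 and 1.40. At a threshold of 1.5-fold, 1 gene of this list was lower and 3 were higher, all named after their values were seen. Over all measured genes 16.0% were at least 1.5-fold higher and 1679 of 13367 at least 1.5-fold lower. At such shares a list of this size would hold a few genes of each kind. Lrig1, a transmembrane protein that promotes loss of EGFR, was 1.69-fold lower (1.62 to 1.75). Spry2 was 1.65-fold higher (1.52 to 1.78), Lrig2 1.62-fold (1.51 to 1.73) and Socs4 1.62-fold (1.48 to 1.77).

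**Figure D5:**
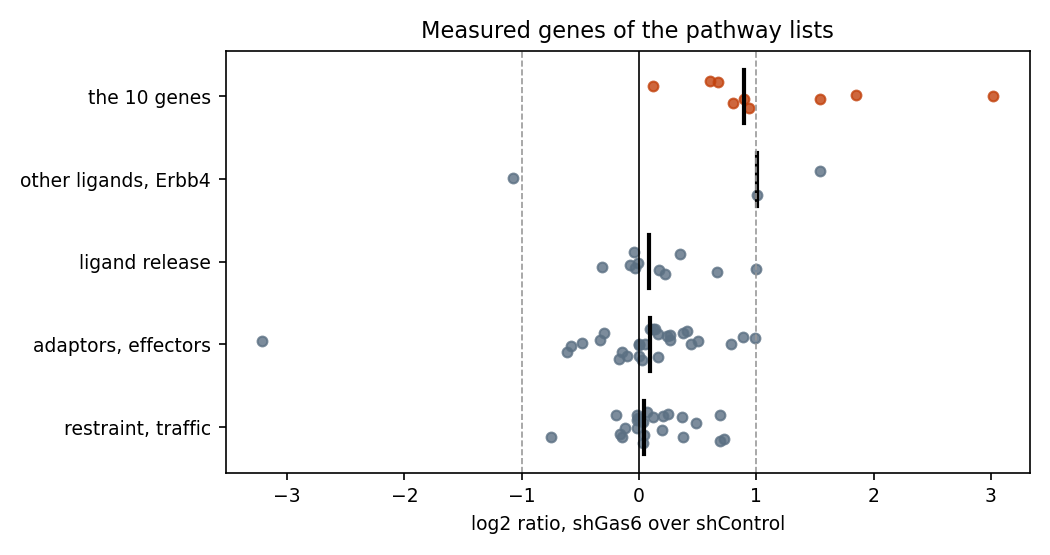
Log2 ratio (x axis, shGas6 over shControl) of each measured gene of the family (orange) and of the lists of other family ligands with Erbb4, ligand release, adaptors and effectors, and restraint and traffic (blue-grey). Points are spread vertically for legibility, black bars mark medians and dashed lines 2-fold. The family median is 0.90, while the medians are 1.01 for the other ligands with Erbb4 (3 measured genes), 0.08 for release, 0.10 for adaptors and 0.05 for restraint. The 3 other ligands each passed the filter of 1 CPM in 1 library only, so their median is not comparable with the rest.

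With only 2 libraries, likeness to another gene can be described by level alone. The 3 measured genes nearest to Areg by Euclidean distance of log2(TPM + 0.5) over the 2 libraries were Nupr1 (123 and 852 TPM), a stress-induced chromatin protein gene, Ndrg1 (80.6 and 523 TPM) and the transcription factor gene Klf6 (142 and 559 TPM).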

How the data were processed

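Poly(A) libraries were made with a stranded kit, per the labels' protocols. Trimmomatic and the build GRCm38 (mm10) are named in the submitters' processing notes. No source used here names the aligner, the counting tool or the annotation release. Per the file headers, the authors deposited raw read counts, FPKM and TPM values per gene. The deposited counts were the basis of all folds. The deposited TPM values served for levels between genes, and the deposited FPKM values only as an alternative.

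TMM scaling was done in edgeR 4.0.16 under R 4.3.3. The log2 ratio used scaled counts plus a pseudocount of 0.5, and the 2-fold and 1.5-fold counts rest on it. Printed folds carry no pseudocount and have exact (Clopper-Pearson) 95% intervals of the binomial split of a gene's counts (scipy 1.17.1), and TPM levels exact Poisson intervals. Both cover counting error only and leave out variation between cultures. They treat every read as an independent molecule, so PCR copies would make them too narrow. The procedure was tested on simulated data.

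The genes, pathway lists and naming rule were chosen with earlier results of these data known, and the promoter motifs after the sequences were read. The rule named every listed gene past 2-fold, up to 4 others per list with the highest mean TPM over both libraries, the measured genes beside the chromosome 5 cluster, and the 3 genes nearest to Areg. Coordinates and promoters come from RefSeq on GRCm38.p6 (45679 of 45777 genes matched). Alternatives were total-count, DESeq2 1.42.0 and upper-quartile scaling, a pseudocount of 5, filters of 1 count and 5 CPM, deposited TPM and FPKM, other fold thresholds, the interval beyond 2-fold, and subtraction of the median of the 50 nearest genes.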

Additional observations from a re-analysis of the deposited data

How the results depend on the processing

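The numbers of family genes past 2-fold (3 higher in shGas6, 0 lower) were identical under the 3 other scalings, a pseudocount of 5, both filters, deposited FPKM and TPM, a counting interval wholly beyond 2-fold and the subtraction of the 50 nearest genes. By construction the higher count was 8 at 1.5-fold and 1 (Areg) at 4-fold, and the lower count stayed 0. Of 63 alternative log2 ratios of the 9 measured genes, all were above 0, 58 lay within the gene's counting interval and 5 moved further. These were Egfr (0.98) and Errfi1 (1.90) with the deposited TPM, and Areg (3.11), Btc (0.76) and Hbegf (0.45) after subtraction of the 50 nearest genes. The Areg log2 ratio ranged from 2.98 to 3.11 and that of Erbb2, the smallest, from 0.08 to 0.17. Counting error is small at these depths except for Epgn, Egf and the neuregulins, and variation between cultures, which 1 library per group does not measure, is the limit of every value. No paired analysis was possible because each group has 1 library.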

Other observations

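Over all measured genes with a RefSeq promoter entry (10087), 8.56% lay past 2-fold on the higher side in shGas6 and 5.86% on the lower side. The shares were 8.55% and 2.63% for the 304 genes with TGACGTCA in the 250 bases before a start, 15.7% and 9.21% for the 521 genes with TATAAA, and 12% and 9.20% for the 609 genes with TGANTCA. For the 250 genes with TGATGNAA, letters that none of the family windows held, they were 19.6% and 4.40%. Both TGACGTCA and TATAAA were found for 12 measured genes, of which 5 were at least 2-fold higher, Areg and Errfi1 among them, and none at least 2-fold lower. The letters were searched for after the windows of Areg and Errfi1 had been read, so that count is no independent support.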
